A study of Homo sapiens with 8 samples.

Results

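The cyclin-dependent kinase (CDK) inhibitor genes are the 7 genes CDKN1A, CDKN1B, CDKN1C, CDKN2A, CDKN2B, CDKN2C and CDKN2D, chosen by symbol from the 38148 genes of the HT29 expression table, 3 of them coding for the CIP/KIP family and 4 for the INK4 family. HT29 cells are an established line from a human colorectal tumour, and selumetinib is a small-molecule inhibitor of MEK, which phosphorylates ERK. Cells were either left untreated or given selumetinib at 1 μM for 24 h, fixed with glyoxal, stained for the protein cyclin B1 (CCNB1), and separated on a flow sorter into a CCNB1-negative and a CCNB1-positive fraction, from which poly(A) mRNA was sequenced. This gave 4 groups of 2 libraries, the CCNB1-negative and the CCNB1-positive fraction of untreated cells and the same fractions of cells given selumetinib. Cyclin B1 protein builds up in G2, so the CCNB1-positive fraction is enriched for G2 cells and the CCNB1-negative fraction holds cells of the other stages, in proportions that were not measured here. Nothing in the labels says that the 2 libraries of a group came from separate cultures, so the p-values below measure only the spread between these libraries, which may be technical.

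CDK inhibitors are small proteins that hold the cell cycle kinases in check. Members of the INK4 family, p16INK4A, p15INK4B, p18INK4C and p19INK4D, bind CDK4 and CDK6 and keep them from their D-type cyclins, whereas the CIP/KIP proteins p21CIP1, p27KIP1 and p57KIP2 bind complexes of cyclin and kinase and block CDK2 most strongly. When CDK4, CDK6 and CDK2 are inhibited, the retinoblastoma protein stays unphosphorylated and E2F factors remain bound by it, so that cells stay in G1. ERK signalling feeds this control point mainly through cyclin D1 and MYC, and much of the regulation of p27KIP1 and p21CIP1 takes place on the protein, which mRNA values do not show.

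The labels of these libraries contradict each other, which bears on the direction of each comparison below. For all 8 libraries the sample title gives the treatment and the fraction opposite to those in the short description, and the growth medium field follows the title in treatment. Groups follow the descriptions, which are also the column names of the table, and the 4 sets of 2 libraries are identical under either reading. Read by the titles, each selumetinib response would be the one given here for the other fraction with its sign turned, each difference between fractions would be the one given for the other treatment with its sign turned, and the difference between responses would not move. Under the descriptions CCNB1 mRNA was higher in the CCNB1-positive fraction, by a log2 difference of 2.09 in untreated cells (limma adjusted p = 3.3e-05) and 5.08 in treated cells (limma adjusted p = 5.4e-10), and DUSP6, a phosphatase gene switched on by ERK, was lower under selumetinib with log2 changes of -1.75 among CCNB1-negative and -1.06 among CCNB1-positive cells (limma adjusted p = 2.2e-06 and 3.3e-04). Of 10 MEK-ERK output genes 9 fell and 1, EGR1, rose in each fraction, and all 10 G2 and mitosis genes were higher in the CCNB1-positive fraction in both treatments. Under the titles, CCNB1 and the other G2 and mitosis genes would be lower in the CCNB1-positive fraction. The same 9 MEK-ERK output genes would then be higher under the MEK inhibitor.

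Library size and composition also moved with the treatment. Reads on genes numbered 19114877 to 23916160 in untreated and 12696860 to 19976635 in treated libraries. Mitochondrial genes took 4.44% to 7.80% of the reads of untreated libraries and 11.9% to 14.8% of those of treated ones, and MALAT1, an abundant nuclear non-coding RNA, 0.303% to 0.386% and 2.01% to 4.42%. All 9 colorectal epithelial marker genes examined passed the filter on low values, with a summed level of 11564 to 12959 RPM (reads of a gene scaled to a fixed library total) in untreated and 6792 to 11056 RPM in treated libraries. KRT8 and KRT18 made up most of this sum. By limma (adjusted p under 0.05), 3 of the 9 were higher and 3 lower under selumetinib in CCNB1-negative cells, where 38.2% and 35.8% of all genes were. In CCNB1-positive cells 3 were higher and 1 lower, where 38.0% and 27.3% of all genes were. Markers of other cells were low. The 3 leukocyte genes summed to between 0.788 and 2.60 RPM, and the 2 endothelial genes to between 0.962 and 1.5 RPM. The 3 fibroblast genes summed to between 0.366 and 1.00 RPM in untreated libraries. In treated libraries they summed to between 1.58 and 2.65 RPM (CCNB1-negative) and between 4.39 and 5.46 RPM (CCNB1-positive). COL1A1 made up most of the fibroblast sum and was the only marker of other cells to pass the filter. CD14 made up most of the leukocyte sum in untreated libraries, at 1.54 to 2.50 RPM, and was at 0.315 to 0.601 RPM in treated ones. COL1A2 and the T cell gene CD3E had 0 or 1 read in each library. The part of these shifts in the results below was not tested, except that the members were also fitted after rescaling to the reads on nuclear genes with MALAT1 left out. In sorted bulk samples, fewer cells that express a gene and less RNA in each cell cannot be told apart.

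Values are given as the authors' log2 values, that is log2 of the reads of a gene after each library was scaled to the largest. A step of 1 is a doubling, and a value of 4.58 corresponds to 1 RPM in the largest library. The authors' scaling did not follow reads on genes exactly, so the same RPM lies slightly lower in treated libraries. For example, 0.726 RPM was at 4.13 in untreated CCNB1-positive replicate 2 (CDKN1C). In treated CCNB1-negative replicate 1, 0.715 RPM was at 3.97 (CDKN2C). All 7 genes had a mean over the 8 libraries above 4.58, as did 14219 genes in all. They were tested with limma on the whole table with Benjamini-Hochberg adjustment. A call means an adjusted p under 0.05. The median of all genes tested moved by 0.05 under selumetinib in the CCNB1-negative fraction and by 0.17 in the CCNB1-positive fraction, and other scalings put it between -0.20 and 0.31, so changes of that size are not separable from the choice of scaling.

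**Figure D1:**
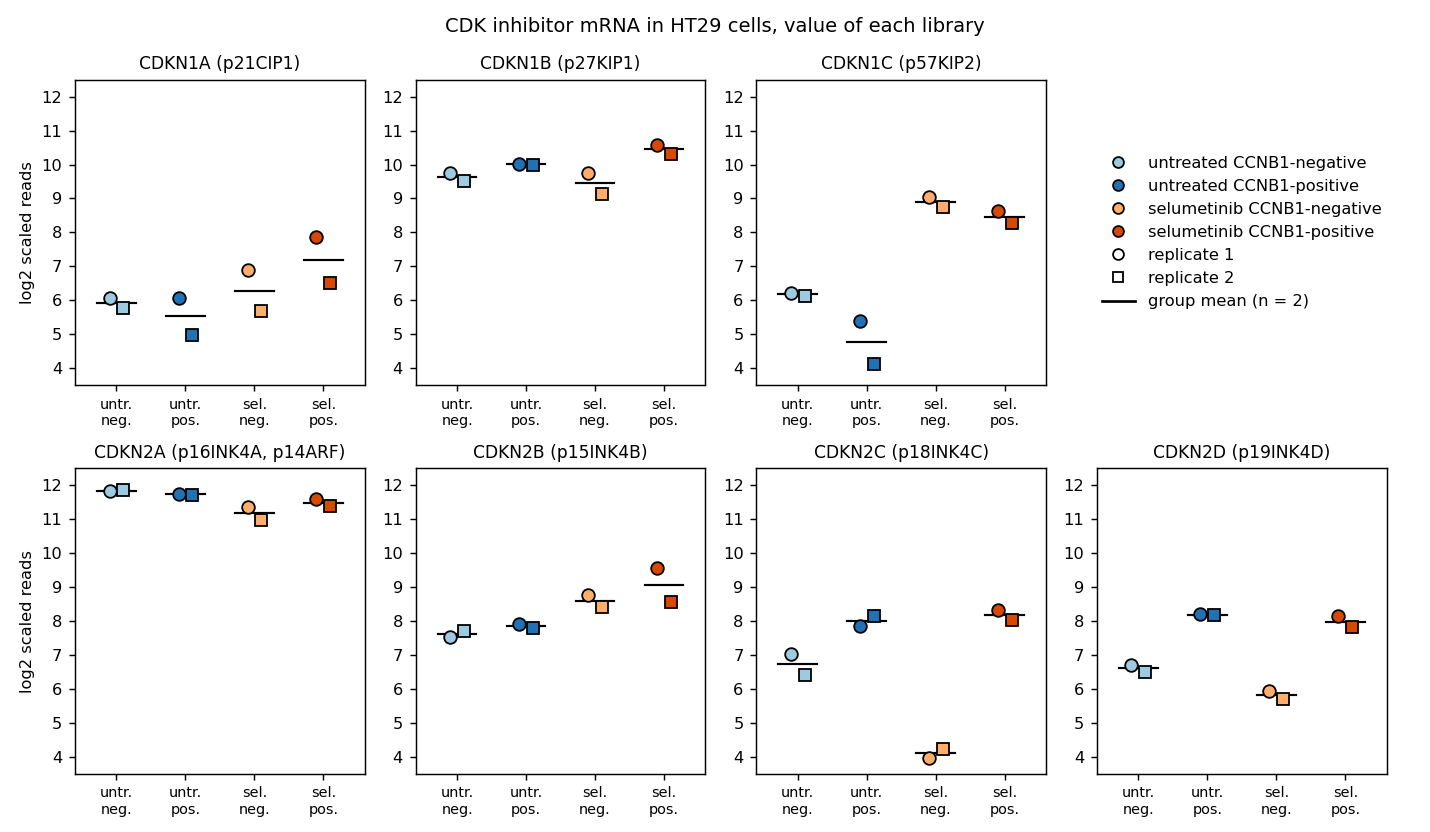
Log2 scaled reads (y axis, the same range in all 7 panels) of each CDK inhibitor gene in the 8 libraries, by group on the x axis (untr., untreated; sel., selumetinib-treated; neg. and pos., CCNB1-negative and CCNB1-positive); circles are replicate 1, squares replicate 2, and bars the mean of 2 libraries. CDKN1C stands higher in all 4 treated libraries, CDKN2C drops to 3.97 and 4.22 only in treated CCNB1-negative cells, and CDKN2D is higher in the 4 CCNB1-positive libraries.

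Compared per length of exon, CDKN2A was the most abundant of the 7 mRNAs in each of the 8 libraries. In untreated CCNB1-negative cells it stood at 39.7 ± 0.092 RPKM (RPM per kilobase of exon; SD, n = 2), followed by CDKN1B at 6.85 ± 0.83 RPKM (SD, n = 2). The other 5 mRNAs lay between 0.847 RPKM for CDKN1A and 2.72 RPKM for CDKN2D, close enough that their order rests on the transcript length assumed. Dividing by the canonical transcript in place of all exons put CDKN2A at 157.6 RPKM and CDKN2C at 4.53 RPKM, above CDKN2D at 2.87 RPKM. The annotated exons of both are far longer than their canonical transcripts, 3884 against 978 bases for CDKN2A and 3018 against 995 for CDKN2C. CDKN2A remained first with each of the 3 lengths tried.

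The makeup of the inhibitor mRNA pool differed between treatments. Over all exons, CDKN2A made up 70.8% and 73.9% of the summed RPKM of the 7 genes in untreated CCNB1-negative, 60.2% and 60.7% in untreated CCNB1-positive, 53.8% and 54.7% in treated CCNB1-negative and 43.4% and 48.1% in treated CCNB1-positive libraries. Within the CIP/KIP family, CDKN1C made up 13.2% and 14.2% of the summed RPKM among untreated CCNB1-negative and 6.70% and 3.13% among untreated CCNB1-positive libraries. It made up 49.2% and 56.8% in treated CCNB1-negative and 28.7% and 29.9% in treated CCNB1-positive libraries, so that no treated library overlapped an untreated one. These shares shift with the lengths used and are given as a description, with no test.

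**Figure D2:**
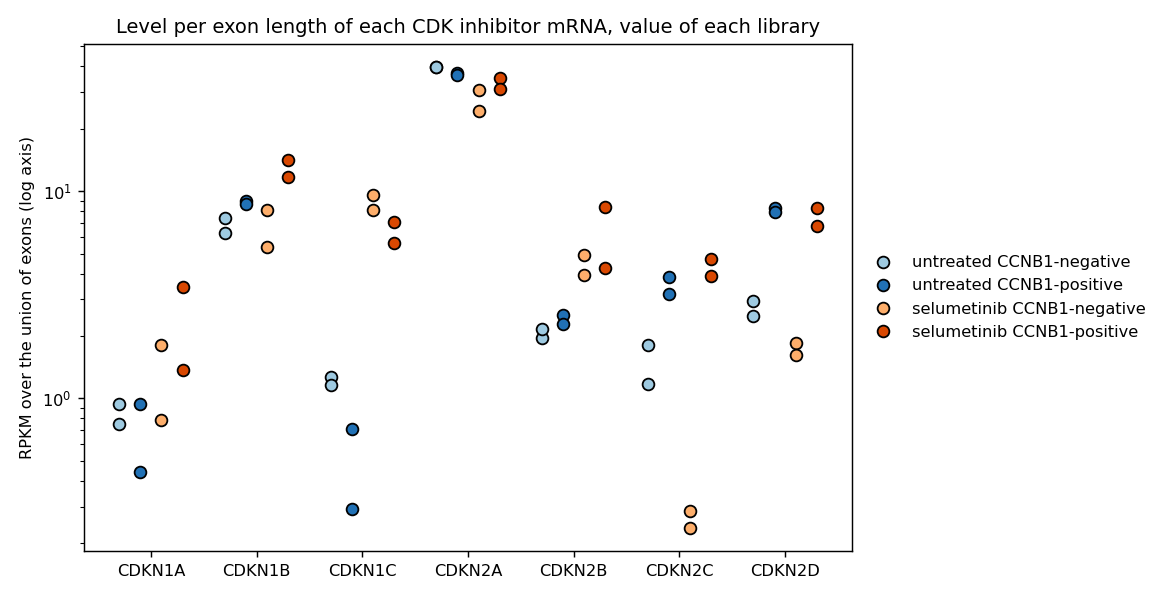
RPKM over the union of annotated exons (y axis, log scale) of the 7 genes (x axis) in each library, colored by group, 2 points a group. CDKN2A stands above the other genes throughout, and CDKN1C rises from at most 1.27 RPKM in untreated to between 5.61 and 9.61 RPKM in treated libraries.

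In CCNB1-negative cells selumetinib shifted 5 of the 7 inhibitor mRNAs, against 74.1% of all genes tested, so the number called was no greater than the background. CDKN1C and CDKN2B rose, which is 2 of 7 where 38.2% of all genes rose, and CDKN2A, CDKN2C and CDKN2D fell, 3 of 7 where 35.8% of all genes fell. The families did not move as blocks: of the 3 CIP/KIP genes 1 rose and none fell (the limma p under 0.05 without adjustment gave no further call), with a median change of 0.37, and of the 4 INK4 genes 1 rose and 3 fell, with a median of -0.73. Quantile normalization turned the CIP/KIP median to -0.13, and limma-voom called CDKN1B lower. In CCNB1-positive cells 3 genes rose, CDKN1A, CDKN1C and CDKN2B, where 38.0% of all genes rose and 65.3% were called in either direction, and 0 of the 7 fell by limma where 27.3% of all genes fell, none of them at an unadjusted p under 0.05 either. Fits by limma-voom and with quantile normalization called 2 and 1 of the INK4 genes lower there. Medians were 1.66 for the 3 CIP/KIP genes (0.60 with quantile normalization) and -0.02 for the 4 INK4 genes, and the INK4 median was above 0 when libraries were scaled to nuclear genes (0.13) and on log2 of RPM plus 1 (0.08).

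**Figure D3:**
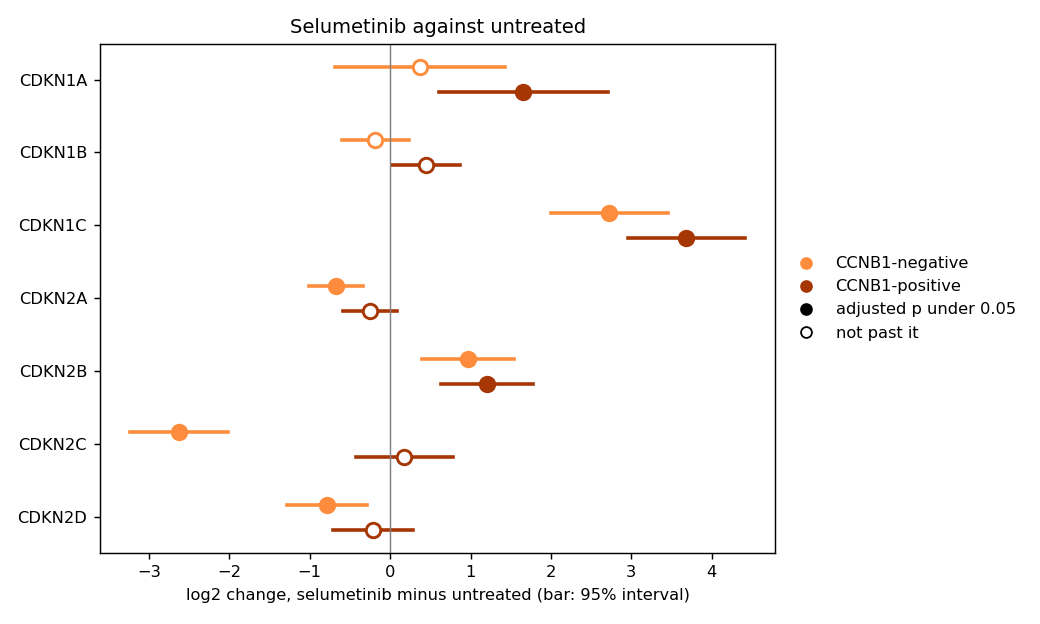
Log2 change under selumetinib (x axis) of each inhibitor mRNA (y axis) in CCNB1-negative (light) and CCNB1-positive (dark) cells, with 95% intervals from limma; filled points passed an adjusted p of 0.05. CDKN1C and CDKN2B lie above 0 in both fractions, and CDKN2C lies at -2.63 in the CCNB1-negative fraction and 0.18 in the CCNB1-positive one.

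CDKN1C, which encodes p57KIP2, had the largest rise of the 7 in both fractions. The gene (ENSG00000129757, GRCh38 chromosome 11, 2883213 to 2885773, minus strand) lies in an imprinted region. Its log2 values were 6.22 and 6.11 in untreated CCNB1-negative libraries, from 69 and 55 reads, and 5.39 and 4.13 in untreated CCNB1-positive libraries, from 42 and 16 reads. With selumetinib they were 9.03 and 8.76 in CCNB1-negative and 8.62 and 8.27 in CCNB1-positive libraries, from 196 to 350 reads. All 4 treated libraries lay above all 4 untreated ones, with a gap of over 2 between the groups. Within the CCNB1-negative fraction 86.4% of all genes tested had no overlap between treatments, in either direction, and within the CCNB1-positive fraction 85.8%. The change was 2.73 (SE 0.34, limma adjusted p = 6.2e-06) in CCNB1-negative cells, 6.62-fold, and 3.68 (SE 0.34, limma adjusted p = 1.2e-06) in CCNB1-positive cells, 12.9-fold. In the ranking of all 14219 genes by size of change, CDKN1C stood 983rd in the CCNB1-negative fraction and 139th in the CCNB1-positive fraction. The rise passed the threshold in all 16 alternative fits in each fraction, with a range of 2.35 to 2.90 and of 2.74 to 4.31. Whether the rise was larger in CCNB1-positive cells was not resolved in this fit, with a difference of 0.96 (95% interval -0.07 to 1.99, limma adjusted p = 0.28). That difference passed the threshold with a replicate block within each treatment.

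Of 12 neighbouring or antisense genes of the 7 inhibitors that were tested, 3 rose and 4 fell in CCNB1-negative cells and 5 rose and 4 fell in CCNB1-positive cells, close to the shares over all genes (38.2% higher and 35.8% lower, and 38.0% and 27.3%). With limma-voom 2 rose and 7 fell in the first and 2 rose and 4 fell in the second. Around CDKN1C the genes named here moved apart. KCNQ1OT1, the long non-coding RNA of the same imprinted region, which is known to silence genes there in cis, was higher under selumetinib, with log2 changes of 2.81 and 2.54 (limma adjusted p = 1.7e-07 and 1.3e-06). PHLDA2, another imprinted neighbour, was lower by log2 changes of -2.22 and -1.64 (limma adjusted p = 3.3e-08 and 1.4e-06), and SLC22A18 changed by 0.03 and 0.16, without passing the threshold (limma adjusted p = 0.89 and 0.43).

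CDKN2B, which encodes p15INK4B, rose in both fractions as well, by about a doubling. It lies on chromosome 9 (ENSG00000147883, 22002903 to 22009305, minus strand) next to CDKN2A. Log2 values were 7.53 and 7.70 in untreated CCNB1-negative, 7.91 and 7.79 in untreated CCNB1-positive, 8.76 and 8.41 in treated CCNB1-negative and 9.55 and 8.56 in treated CCNB1-positive libraries. The 4 treated libraries exceeded the 4 untreated ones, and the highest, treated CCNB1-positive replicate 1, stood well above its replicate. The change was 0.97 (SE 0.27, limma adjusted p = 0.0047) in CCNB1-negative and 1.2 (SE 0.27, limma adjusted p = 0.0014) in CCNB1-positive cells, 1.96-fold and 2.30-fold. Both calls held in the 17 alternative fits, with ranges of 0.72 to 1.15 and 0.70 to 1.70. The lower end of the second range was the fit without treated CCNB1-positive replicate 1.

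CDKN2A, the neighbour of CDKN2B, moved the other way in CCNB1-negative cells. The gene (ENSG00000147889, chromosome 9, 21967753 to 21995301, minus strand) encodes p16INK4A and, from another first exon and reading frame, the protein p14ARF, and a table with 1 value per gene cannot separate their transcripts. Log2 values were 11.84 and 11.86 in untreated CCNB1-negative, 11.75 and 11.73 in untreated CCNB1-positive, 11.36 and 10.99 in treated CCNB1-negative and 11.59 and 11.39 in treated CCNB1-positive libraries, from 1203 to 3453 reads. The treated libraries lay below the untreated ones in both fractions without overlap. Treated and untreated libraries did not overlap, in either direction, for 86.4% of all genes tested in the CCNB1-negative fraction and 85.8% in the CCNB1-positive one. In CCNB1-negative cells the change was -0.67 (SE 0.15, limma adjusted p = 0.0014), a level 1.59-fold lower, and the call held in all 17 alternatives (-0.93 to -0.42). In CCNB1-positive cells it was -0.25 (95% interval -0.58 to 0.08, limma adjusted p = 0.17), a value that limma-voom called (-0.60, adjusted p = 0.0040) and that quantile normalization moved to 0.00.

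At the same locus, the antisense long non-coding RNA CDKN2B-AS1 (ANRIL), which recruits Polycomb complexes to these genes, rose by 1.17 in CCNB1-positive cells (limma adjusted p = 5.2e-04), while its change of 0.41 in CCNB1-negative cells did not pass the threshold (limma adjusted p = 0.12). MTAP, the methylthioadenosine phosphorylase gene on the far side of CDKN2A, was lower by log2 changes of -0.90 and -0.92 (limma adjusted p = 1.8e-04 and 2.3e-04). Exons of CDKN2B-AS1 share 593 bases with those of CDKN2A on the opposite strand, 15.3% of the exon bases of CDKN2A. CDKN2B-AS1 had 161 to 414 reads per library, fewer than CDKN2A in each, and the strand setting of the counts is not given in the sources used here, so reads of the shared bases could have been counted for either gene.

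CDKN1A, which encodes p21CIP1, an inhibitor of CDK2 that is induced by DNA damage, was scarce and variable. It lies on chromosome 6 (ENSG00000124762, 36676460 to 36687339, plus strand). Log2 values were 6.07 and 5.76 in untreated CCNB1-negative, 6.07 and 4.99 in untreated CCNB1-positive, 6.90 and 5.67 in treated CCNB1-negative and 7.86 and 6.51 in treated CCNB1-positive libraries, from 29 to 206 reads. Both treated CCNB1-positive libraries exceeded both untreated ones, and the CCNB1-negative groups overlapped. For 85.8% of all genes tested, treated and untreated CCNB1-positive libraries did not overlap, in either direction. The change was 1.66 (SE 0.49, limma adjusted p = 0.0090) in CCNB1-positive cells, 3.15-fold, and 0.37 (95% interval -0.69 to 1.42, limma adjusted p = 0.51) in CCNB1-negative cells. The call in CCNB1-positive cells was lost without untreated replicate 2 (1.12, limma adjusted p = 0.085), without treated replicate 1 (0.99, limma adjusted p = 0.14) and with quantile normalization (0.60, limma adjusted p = 0.30). A difference between the responses was not resolved in this fit (1.29, 95% interval -0.20 to 2.78, limma adjusted p = 0.32), though it passed the threshold with a replicate block within each treatment.

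CDKN1B, which encodes p27KIP1, was the steadiest of the CIP/KIP mRNAs. On chromosome 12 (ENSG00000111276, 12715058 to 12722369, plus strand), it had log2 values of 9.75 and 9.52 in untreated CCNB1-negative, 10.02 and 9.98 in untreated CCNB1-positive, 9.76 and 9.14 in treated CCNB1-negative and 10.59 and 10.31 in treated CCNB1-positive libraries. The treated CCNB1-positive libraries were the highest of the 8, where 85.8% of all genes tested had no overlap between treatments in that fraction. The CCNB1-negative groups of CDKN1B overlapped. Its change was -0.18 (95% interval -0.60 to 0.24, limma adjusted p = 0.41) in CCNB1-negative and 0.45 (95% interval 0.03 to 0.86, limma adjusted p = 0.057) in CCNB1-positive cells. The latter sat at the threshold, passed it in 7 of 17 alternative fits, and ranged from 0.10 to 0.59. Between the treated fractions CDKN1B was 2.0-fold higher in CCNB1-positive cells (log2 difference 1.0, SE 0.19, limma adjusted p = 0.0028), a call kept in all 18 alternatives.

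CDKN2C, which encodes p18INK4C, was the member whose response to selumetinib differed between fractions in this fit. The gene (ENSG00000123080, chromosome 1, 50960745 to 50974634, plus strand) is a known E2F target, and shares 617 exon bases, 20.4% of its own, with the annotated gene ENSG00000290102 on the opposite strand, which has no row in the table. Log2 values were 7.02 and 6.42 in untreated CCNB1-negative, 7.85 and 8.14 in untreated CCNB1-positive, 3.97 and 4.22 in treated CCNB1-negative and 8.32 and 8.02 in treated CCNB1-positive libraries. Treated CCNB1-negative cells stood apart with 10 and 11 reads, below the 1 RPM filter that the gene passed through its other groups, while the groups of CCNB1-positive libraries overlapped. Selumetinib lowered CDKN2C by a log2 change of -2.63 (SE 0.28, limma adjusted p = 1.6e-06) in CCNB1-negative cells, 6.17-fold. This call held in all 16 alternatives, from -3.31 with quantile normalization to -1.60 on log2 of RPM plus 1. In CCNB1-positive cells the change was 0.18 (95% interval -0.43 to 0.78, limma adjusted p = 0.59), with its sign turned by quantile normalization (-0.30) and limma-voom (-0.14). The responses differed by 2.80 (SE 0.40, limma adjusted p = 4.2e-04) in the interaction term, the only one of the 7 to pass in this fit, where 5.33% of all genes did, and this held in all 16 alternatives that tested CDKN2C (1.86 to 3.10). By size this difference stood 69th among 14219 genes. With a replicate block within each treatment, CDKN1A, CDKN1B, CDKN1C and CDKN2A passed the interaction term as well, where 3850 of the 14219 genes did. All 10 G2 and mitosis genes also fell in CCNB1-negative cells, with a median of -3.55 (9 of them fell in CCNB1-positive cells too, median -0.96), and passed the interaction with a median difference of 2.64, as did 5 of the 9 kinases and cyclins tested, and their part in the CDKN2C result was not tested. CDK1 and CCNA2 are in both of these lists.

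CDKN2D, which encodes p19INK4D, fell in the same fraction by less. On chromosome 19 (ENSG00000129355, 10566462 to 10569059, minus strand), it had log2 values of 6.72 and 6.5 in untreated CCNB1-negative, 8.21 and 8.16 in untreated CCNB1-positive, 5.94 and 5.72 in treated CCNB1-negative and 8.14 and 7.83 in treated CCNB1-positive libraries. The 4 CCNB1-positive libraries lay above the 4 CCNB1-negative ones, and within each fraction the treated libraries lay below the untreated ones. Over all genes tested, the fractions did not overlap for 44.3% in untreated and 63.9% in treated cells. The treatments did not overlap for 86.4% of genes in the CCNB1-negative and 85.8% in the CCNB1-positive fraction. The change was -0.78 (SE 0.23, limma adjusted p = 0.0075) in CCNB1-negative cells, 1.72-fold lower, and from -1.67 with quantile normalization to -0.49 on log2 of RPM plus 1 over the alternatives. It was -0.21 (95% interval -0.71 to 0.29, limma adjusted p = 0.44) in CCNB1-positive cells. Without untreated CCNB1-negative replicate 1 the first call was lost (-0.68, limma adjusted p = 0.056), and quantile normalization and limma-voom called the second (-0.69 and -0.53, adjusted p = 0.018 and 0.020). The responses differed by 0.57 (95% interval -0.13 to 1.28, limma adjusted p = 0.35), which was not resolved.

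Promoter sequences of CDKN2C and CDKN2D, the genes called higher in CCNB1-positive cells in both treatments, are shown because they differ in the letters read by E2F factors. The windows run from 250 bases before to 50 after the annotated start, are written 5′ to 3′ on the strand of the gene, and come from RefSeq on GRCh38.p14, which gave windows for 6 of the 7 genes. Capitals mark matches on either strand to the E2F letters, which are TTCCCGC, otherwise TTGGCGC, otherwise TTCGCGC, otherwise TTGCCGC, and to the CHR letters, which are TTTGAA. No window was given for CDKN1C. CDKN2C has 3 annotated starts in that set, and the window shown is the one with E2F matches. With 3 windows CDKN2C had more places for a match than CDKN2D with 1, and the share of windows given below is per single window.
CDKN2C, chr1:50968456-50968755, plus strand: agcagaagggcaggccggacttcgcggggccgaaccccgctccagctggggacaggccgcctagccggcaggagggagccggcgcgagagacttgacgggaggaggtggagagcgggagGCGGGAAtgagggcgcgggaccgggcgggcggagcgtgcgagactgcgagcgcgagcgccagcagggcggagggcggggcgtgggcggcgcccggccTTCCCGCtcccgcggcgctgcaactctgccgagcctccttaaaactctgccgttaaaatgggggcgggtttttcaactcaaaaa
CDKN2D, chr19:10568930-10569229, minus strand: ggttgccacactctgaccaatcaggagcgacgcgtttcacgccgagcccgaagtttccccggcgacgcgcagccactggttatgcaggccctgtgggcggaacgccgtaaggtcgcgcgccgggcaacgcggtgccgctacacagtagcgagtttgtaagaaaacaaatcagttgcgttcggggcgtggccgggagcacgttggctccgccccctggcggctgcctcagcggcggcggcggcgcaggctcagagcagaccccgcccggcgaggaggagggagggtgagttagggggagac
The CDKN2C window holds 2 E2F matches, both TTCCCGC, 1 on the minus strand from 131 and 1 on the plus strand from 34 bases before the start. It also holds 6 GC boxes (GGGCGG), of which 2 overlap each other and none overlaps an E2F match. The CDKN2D window holds 0 E2F and 0 CHR matches and 3 GC boxes. None of the other member windows held an E2F match, including the 2 windows of CDKN2A at chr9:21995275-21995574 and chr9:21974808-21975107, and 13.0% of the 35116 RefSeq windows of this length did, against 45.0% with a GC box and 15.2% with the CHR letters. A match is a description of letters, and a window without one says nothing about the factor.

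CDKN2C and CDKN2D were higher in the CCNB1-positive fraction in both treatments. In untreated cells 3 of the 7 genes were called, where 2.87% of all genes were, 2 of them higher in CCNB1-positive cells (1.36% of all genes) and 1 lower (1.51%). Libraries of the fractions did not overlap for 44.3% of all genes in untreated and 63.9% in treated cells. CDKN2D was higher in CCNB1-positive cells by 1.58 (SE 0.23, limma adjusted p = 0.0011), 2.99-fold, in all 17 alternatives. CDKN2C was higher by 1.27 (SE 0.28, limma adjusted p = 0.023), 2.41-fold, a call lost in 6 of 17 alternatives, among them the fits without untreated CCNB1-negative replicate 2 (0.97, limma adjusted p = 0.25) and without untreated CCNB1-positive replicate 2 (1.12, limma adjusted p = 0.22). CDKN1C was lower by a log2 difference of -1.41 (SE 0.34, limma adjusted p = 0.039). That call was lost in 14 of 17 alternatives and rested on untreated CCNB1-positive replicate 2, with 16 reads, without which the difference was -0.78 (limma adjusted p = 0.34). CDKN1A, CDKN1B, CDKN2A and CDKN2B differed by between -0.39 and 0.37, with limma adjusted p from 0.46 to 0.86. Of these, CDKN1B passed with a replicate block within each treatment, where 1923 genes did.

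In selumetinib-treated cells 3 of the 7 genes, CDKN1B, CDKN2C and CDKN2D, were higher in the CCNB1-positive fraction, where 13.8% of all genes were higher, 7.87% lower and 21.6% called in either direction. CDKN2C was higher by 4.07 (SE 0.28, limma adjusted p = 1.1e-07), 16.8-fold, the 58th largest difference among 14219 genes. In the CCNB1-negative fraction given selumetinib, CDKN2C stood at only 0.715 RPM (replicate 1) and 0.866 RPM (replicate 2), under the 1 RPM filter. The size of this fold and its rank therefore rest on values near the floor. CDKN2D was higher by 2.16 (SE 0.23, limma adjusted p = 1.5e-05), 4.45-fold. All 3 calls held in each alternative that tested them, with ranges of 0.69 to 1.31 for CDKN1B, 2.96 to 4.22 for CDKN2C and 1.77 to 2.44 for CDKN2D. CDKN1A, CDKN2A and CDKN2B were at 0.90, 0.31 and 0.47, and CDKN1C at -0.45, with limma adjusted p between 0.16 and 0.35. With a replicate block within each treatment CDKN1A, CDKN2A and CDKN2B passed, where 6671 of the 14219 genes did. For CDKN2B, leaving out treated CCNB1-positive replicate 1 turned the difference to -0.03, and leaving out replicate 2 raised it past the threshold (0.97, limma adjusted p = 0.024).

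**Figure D4:**
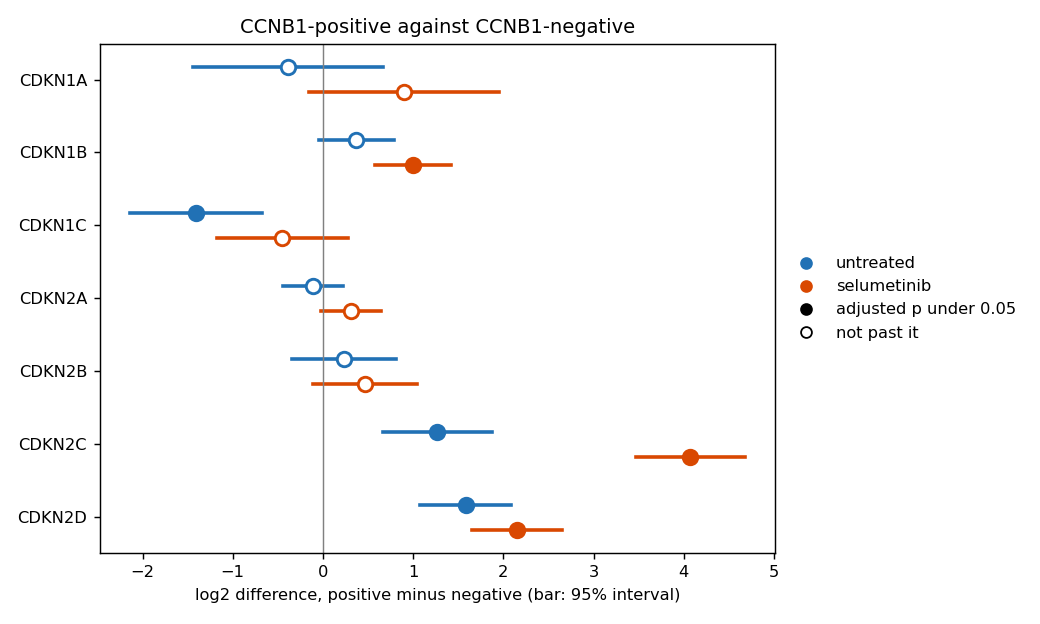
Log2 difference between the CCNB1-positive and CCNB1-negative fractions (x axis) for each gene (y axis) in untreated (blue) and selumetinib-treated cells (orange), with 95% intervals from limma; filled points passed an adjusted p of 0.05. CDKN2C and CDKN2D lie right of 0 in both treatments, CDKN2C at 1.27 and 4.07.

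Replicate 1 read higher than replicate 2 for 7 of the 7 genes in treated CCNB1-positive cells and for 6 of 7 in treated CCNB1-negative cells, with median gaps of 0.31 and 0.35. In untreated cells this held for 6 and 5 of the 7 genes, with median gaps of 0.05 and 0.21. The widest gap in treated cells was at CDKN1A, 1.34 in CCNB1-positive and 1.23 in CCNB1-negative cells.

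The kinases and cyclins that the inhibitors bind were mostly lower under selumetinib. Of 10 listed genes 9 were tested, and 7 fell in the CCNB1-negative fraction and 6 in the CCNB1-positive fraction, with medians of -2.52 and -0.62, where 35.8% and 27.3% of all genes fell. The count in CCNB1-positive cells was 4 when scaled to nuclear genes or on log2 of RPM plus 1, and 7 with quantile normalization or limma-voom. None rose, at an unadjusted p under 0.05 either, except that quantile normalization called 1 higher in CCNB1-negative cells. CDK4, the main target of the INK4 proteins, changed by -1.92 among CCNB1-negative and -1.46 among CCNB1-positive cells (limma adjusted p = 1.5e-07 and 4.5e-06). Its partner cyclin D1, CCND1, changed by -1.60 and -1.29 (limma adjusted p = 3.0e-07 and 5.4e-06), while CDK6 changed by 0.15 and 0.01, without passing the threshold. The largest falls in CCNB1-negative cells were those of CDK1, the mitotic kinase (-4.17), CCNA2 (-3.78), CCNE2 (-3.61) and CCNE1 (-2.79), all with a limma adjusted p of at most 1.8e-07. In CCNB1-positive cells these were at -1.03, -1.19, 0.08 and -0.62, and CCNE2 did not pass the threshold there (limma adjusted p = 0.82). Of the 3 pocket proteins, RBL2 rose in both fractions (0.81 and 0.71, limma adjusted p = 2.5e-04 and 0.0010), RBL1 fell in CCNB1-negative cells (-0.85, limma adjusted p = 0.0045) and RB1 was at -0.16 and 0.01.

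Genes whose products degrade the inhibitor proteins fell as well. Of 11 tested, 10 fell in the CCNB1-negative fraction, 9 in the CCNB1-positive fraction and 0 rose, where 35.8% and 27.3% of all genes fell, with medians of -1.55 and -0.78, and the 4 other scalings gave 9 to 10 and 7 to 11 lower and 0 higher. SKP2, the F-box protein that marks p27KIP1 for destruction, changed by -2.11 and -0.88 (limma adjusted p = 3.7e-08 and 1.6e-04). Its cofactor CKS1B changed by -3.60 and -1.09 (limma adjusted p = 2.0e-09 and 1.0e-04). DTL, the substrate receptor that directs p21CIP1 to CUL4, changed by -3.10 and -0.25, the latter short of the threshold (limma adjusted p = 1.8e-07 and 0.42). CDC20, the mitotic activator of the anaphase-promoting complex, changed by -4.07 and -0.66 (limma adjusted p = 7.2e-10 and 0.0023), and is also among the G2 and mitosis genes.

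Transcription factors known to act on these promoters split. Of 16 tested, 9 rose and 3 fell in CCNB1-negative cells and 9 rose and 2 fell in CCNB1-positive cells, with medians of 0.57 and 0.51, where 38.2% and 38.0% of all genes rose and 35.8% and 27.3% fell. The number called in either direction was near the background of 74.1% and 65.3%. With limma-voom 8 rose and 4 fell in the first and 5 rose and 2 fell in the second. FOXO3, an activator of CDKN1B, rose by 2.61 and 2.40 (limma adjusted p = 8.7e-09 and 9.8e-08), and FOXO4 by 1.35 and 0.92 (limma adjusted p = 3.9e-05 and 0.0013). KLF6, which can induce CDKN1A, rose by 1.2 and 1.53 (limma adjusted p = 2.8e-05 and 6.7e-06). MYC, which represses CDKN1A and CDKN2B through the factor encoded by ZBTB17, changed by -2.27 and -1.85 (limma adjusted p = 4.2e-08 and 8.6e-07), and ZBTB17 by 0.77 and 0.64 (limma adjusted p = 6.7e-04 and 0.0032).

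Of the 8 Polycomb genes that act on the CDKN2A and CDKN2B locus, 1 rose and 4 fell in CCNB1-negative cells and 1 rose and 3 fell in CCNB1-positive cells, where 38.2% and 38.0% of all genes rose and 35.8% and 27.3% fell. The number called in either direction was no greater than the background of 74.1% and 65.3%. CBX7 rose (1.09 and 1.21, limma adjusted p = 0.0039 and 0.0025), EED fell (-1.33 and -0.73, limma adjusted p = 6.2e-06 and 0.0017), BMI1 fell (-1.12 and -0.77, limma adjusted p = 3.6e-05 and 0.0012), and EZH2 fell in CCNB1-negative cells (-0.98, limma adjusted p = 6.1e-05) and was at 0.08 in CCNB1-positive cells (limma adjusted p = 0.66).

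**Figure D5:**
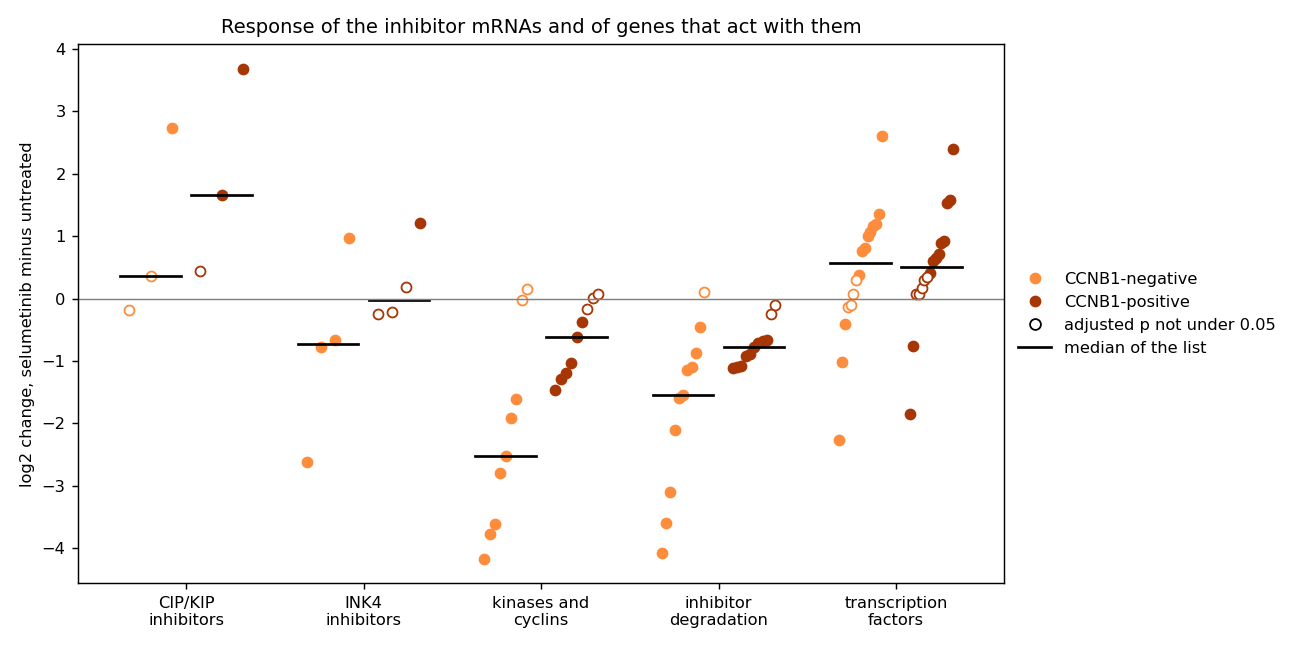
Log2 change under selumetinib (y axis) of each gene of 5 lists (x axis) in CCNB1-negative (light) and CCNB1-positive cells (dark); filled points passed a limma adjusted p of 0.05, and bars are medians. The kinases and cyclins have medians of -2.52 and -0.62 and the degradation genes of -1.55 and -0.78, while the inhibitor genes spread to both sides of 0.

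The genes whose 8 values, centred on their own mean, ran closest to those of each inhibitor were picked over all genes tested by root mean square distance, and genes are not independent replicates. For CDKN2C these were NUSAP1, BUB1B-PAK6 and KIF4A, at distances of 0.25 to 0.26 where CDKN2C itself had an SD of 1.75. For CDKN2D they were NDE1, ZNF165 and CENPA (0.18 to 0.22, SD 1.05), and for CDKN2B PDGFA, ZNF185 and CACNG4 (0.12 to 0.19, SD 0.68). CDKN1C ran closest to PAQR6, CES4A and C5AR1 (0.26 to 0.27, SD 1.84), and CDKN1A to VASN, DNAJB5 and RNF39 (0.25 to 0.30, SD 0.87). CDKN1B ran closest to HEXIM1, NAPA-AS1 and CEP44 (0.11 to 0.12, SD 0.45), and CDKN2A to BCAP29, EGLN2 and ERP29 (0.03 to 0.04, SD 0.30). Each distance is over the same 8 libraries of 4 groups, so any gene with the same pattern over the groups comes out near.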

How the data were processed

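RNA was sequenced from 8 libraries of glyoxal-fixed, sorted HT29 cells, made with a directional kit after poly(A) selection. Per the labels and the methods of the study, reads were trimmed by the authors (Trim Galore 0.5.0), aligned to GRCh38 with HISAT2 2.1.0 and counted per gene in SeqMonk. The deposited log2 values are, by the authors' processing, log2 read counts per gene with each library scaled to the largest, and genes without reads are at log2 of 0.9 plus the library's constant. The annotation release and the strand setting are not given in the sources used here. Undoing the scaling gave whole reads (within 0.01) for all genes with reads in each of the 8 libraries, which set the depths of 12696860 to 23916160 reads on genes. Culture medium is named differently in the labels and the methods.

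Groups were taken from the sample descriptions. Group means over all 8 libraries were fitted to the deposited log2 values with limma 3.58.1 (trend, R 4.3.3). The fit covered the 14219 of 38148 genes whose mean log2 value reached 4.58, which is 1 RPM in the largest library. P-values were adjusted across them by Benjamini-Hochberg. Each p is two-sided. RPM and RPKM were computed from the recovered reads, with lengths from GENCODE gene models on GRCh38. The fit was checked on simulated data. Alternatives were no filter, a filter of 10 RPM, quantile normalization, limma-voom on the reads, scaling to nuclear genes without MALAT1, log2 of RPM plus 1, replicate blocks, fitting only the groups compared, an adjusted p under 0.01, other transcript lengths and leaving out each library. Division by the canonical transcript was chosen after seeing the data.

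The 7 members and the gene lists were chosen with earlier results of these data known. From each list at most 4 genes with the largest change in CCNB1-negative cells were named, together with direct regulators and targets beside a member. MTAP and SLC22A18 fall outside that rule and were chosen after their values were seen. A listed transcription factor gene and a further list are not reported here. Read counts cover counting error only. Python 3.11.15, pandas 2.3.3, numpy 2.4.6 and matplotlib 3.10.9 were used.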

Additional observations from a re-analysis of the deposited data

Results flagged for a closer look

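The response of CDKN2C to selumetinib differed between the fractions by 2.80 on the log2 scale (SE 0.40), as tested by the interaction term of the limma fit (adjusted p = 4.2e-04). It was picked out because the effect of one contrast was not the same in the sorted fractions. The log2 change was -2.63 in the CCNB1-negative fraction and 0.18 in the CCNB1-positive fraction, and the former rests on 10 and 11 reads in the treated libraries.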

How the results depend on the processing

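Of 589 refitted member changes under the alternatives, 531 kept their direction and their side of the threshold. The cause of the changes below was not tested, except that the 10 RPM filter kept only CDKN1B, CDKN2A and CDKN2B and so could call fewer members.

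In CCNB1-negative cells under selumetinib, members called went from 5 to 2 with the 10 RPM filter. CDKN1A turned to -0.55 with quantile normalization and ranged from -0.25 to 0.98 when 1 library was left out, and CDKN1B from -0.49 to 0.13. In CCNB1-positive cells, 3 members called became 1 with the 10 RPM filter and 5 with limma-voom. CDKN2A turned to 0.0039 with quantile normalization, and CDKN2C to -0.30 with quantile normalization and -0.14 with limma-voom.

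Between the fractions of untreated cells, 408 genes were called, against 259 with no filter, 254 with quantile normalization, 217 at an adjusted p under 0.01 and 224 to 455 when 1 library was left out. Members called went from 3 to 1 with no filter, with quantile normalization, with only the groups compared and at the stricter p, to 0 with the 10 RPM filter and to 1 to 3 when 1 library was left out. CDKN2A turned to 0.0080 with limma-voom, and CDKN1A ranged from -0.93 to 0.15 without 1 library. In treated cells, 3077 genes became 1338 at the stricter p and 1156 to 4279 without 1 library, members called became 1 with the 10 RPM filter, and CDKN2B ranged from -0.030 to 0.97. For the difference of responses, 758 genes became 496 with no filter, 426 at the stricter p and 489 to 1806 without 1 library. Members called went from 1 to 0 with the 10 RPM filter and to 1 to 2 without 1 library, and CDKN2B ranged from -0.26 to 0.73.

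The labels tie same-numbered libraries by their number only. Correlations of their deviations were 0.35 and 0.43 between fractions of one treatment and -0.0875 to 0.0821 across treatments, 2 pairs each. Same-numbered fractions of one treatment thus moved partly together, and whether they came from one sort was not tested. A replicate block over all groups called 10890, 9764, 500, 3741 and 883 genes in the 5 comparisons. A replicate block within each treatment called 1923 genes between untreated fractions, 6671 genes and 6 members between treated fractions, and 3850 genes and 5 members for the difference of responses. Under this block CDKN1A, CDKN1B, CDKN1C and CDKN2A also passed for the difference of responses (limma adjusted p = 0.020, 0.0072, 0.045 and 0.024), CDKN1A, CDKN2A and CDKN2B also passed between treated fractions (0.012, 0.010 and 0.026), and CDKN1B also passed between untreated fractions (0.034). The block over all groups added CDKN1B for selumetinib in CCNB1-positive cells (limma adjusted p = 0.023).

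The share of called genes that were higher was 51.6% for selumetinib in CCNB1-negative cells, against 43.0% with limma-voom, 42.2% with the 10 RPM filter and 61.6% with no filter. It moved from 58.1% to 47.1% with quantile normalization for selumetinib in CCNB1-positive cells (41.0% with limma-voom), from 47.5% to 65.7% between untreated fractions (66.8% with limma-voom), from 63.6% to 46.5% between treated fractions (52.0% on log2 of RPM plus 1) and from 93.5% to 69.2% for the difference of responses (83.2% with limma-voom).

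Levels in untreated CCNB1-negative cells moved with the transcript length assumed. With the longest and the canonical transcript, CDKN1A was at 1.12 and 1.2 RPKM, CDKN1C at 1.55 and 1.70 and CDKN2A at 146.5 and 157.6, and with the canonical transcript CDKN1B was at 13.8 and CDKN2C at 4.53 RPKM. Low read counts limited CDKN1A, CDKN1C and CDKN2C, whose lowest libraries had 29, 16 and 10 reads.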
